A study of Drosophila melanogaster with 4 samples.

Results

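Chromosome X of Drosophila melanogaster S2 cells carried 344 of the 2233 regions called for CP190, Ibf1 or Ibf2 by chromatin immunoprecipitation and sequencing (ChIP-seq). A region is the union of peaks of the 3 deposited lists that share at least 1 bp, and every such region on X was kept, whatever its class. S2 is a cultured line of embryonic origin. One library was made per antibody (CP190, CG8436 and CG9740), with 1 Input library of genomic DNA as the authors' reference for calling. The antibody targets CG8436 and CG9740 are listed as Ibf1 and Ibf2 in the RefSeq gene table (Release 6). All libraries came from S2 cells with no treatment named in the labels, the antibodies were polyclonal, and no replicate library was analysed here. X was compared with 1821 regions on the autosome arms 2L, 2R, 3L and 3R and chromosome 4. The remaining regions lay on other sequences and were in neither group, but they counted towards the list and class medians used as width cuts. The lists hold positions only, so neither read depth nor peak height was known, and the S2 identity of the cells could not be checked in them.

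Insulators are stretches of DNA that keep an enhancer from acting on the wrong promoter or mark off one chromatin domain from the next. CP190 is a cofactor at many Drosophila insulators, brought to DNA by several sequence-specific proteins. Ibf1 and Ibf2 are DNA-binding partners of CP190 that associate with each other. X is a single long arm whose coordinates run from the telomere towards the centromere. In what follows the width of a peak is its end minus its start plus 1 bp, positions are in dm3 as deposited, and intervals of shares and medians are 95% exact intervals that cover counting error only. Regions of one library are not replicates of a condition, so each p-value describes the lists and not a population of cultures.

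Most regions on X were called for CP190 alone. This class held 257 of the 344 regions (74.7%, 69.8 to 79.2). All 3 proteins were called at 55 regions (16.0%, 12.3 to 20.3), and CP190 with Ibf2 but without Ibf1 at 20 (5.81%). The remaining 12 regions lacked CP190: 6 had both Ibf proteins and 6 had Ibf2 alone. Ibf1 was never called without Ibf2 on X, and on the autosomes this occurred at 1 of 1821 regions. The 344 regions covered 99.1 kb, or 0.449% of the span between the first and the last of them.

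CP190 was thus called at 75 of the 87 X regions with an Ibf peak (86.2%, 77.1 to 92.7), against 508 of 651 on the autosomes (78.0%, 74.7 to 81.2). The odds ratio was 1.76 with an interval of 0.917 to 3.66, which includes 1 (two-sided exact Fisher test, Benjamini-Hochberg adjusted p = 0.231 over 10 tests of X against autosomes). Where both Ibf proteins were called, CP190 was present at 55 of 61 X regions (90.2%) and at 429 of 503 autosomal ones (85.3%). That odds ratio was 1.58 (0.649 to 4.65, exact Fisher test, adjusted p = 0.544). A difference in how often Ibf sites carried CP190 was therefore not resolved with 87 Ibf regions on X.

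Regions were spread over nearly the whole of X, with a thin stretch near its middle. The first region lay at 139792 to 140057 and the last at 22226537 to 22226852, and both were CP190 alone. Over the 22 complete 1 Mb bins from position 0, the number of regions ranged from 6 to 26 with a median of 14. The fullest bins were 1 to 2 Mb and 18 to 19 Mb, with 26 regions each. The thinnest were the 3 neighbouring bins between 10 and 13 Mb, with 7, 8 and 6 regions. The variance of the bin counts was 2.08 times their mean on X, between the values of the 4 large autosome arms (1.26 on 3L, 1.46 on 3R, 1.50 on 2L and 3.15 on 2R). X was thus no more uneven than the most uneven autosome arm.

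**Figure D1:**
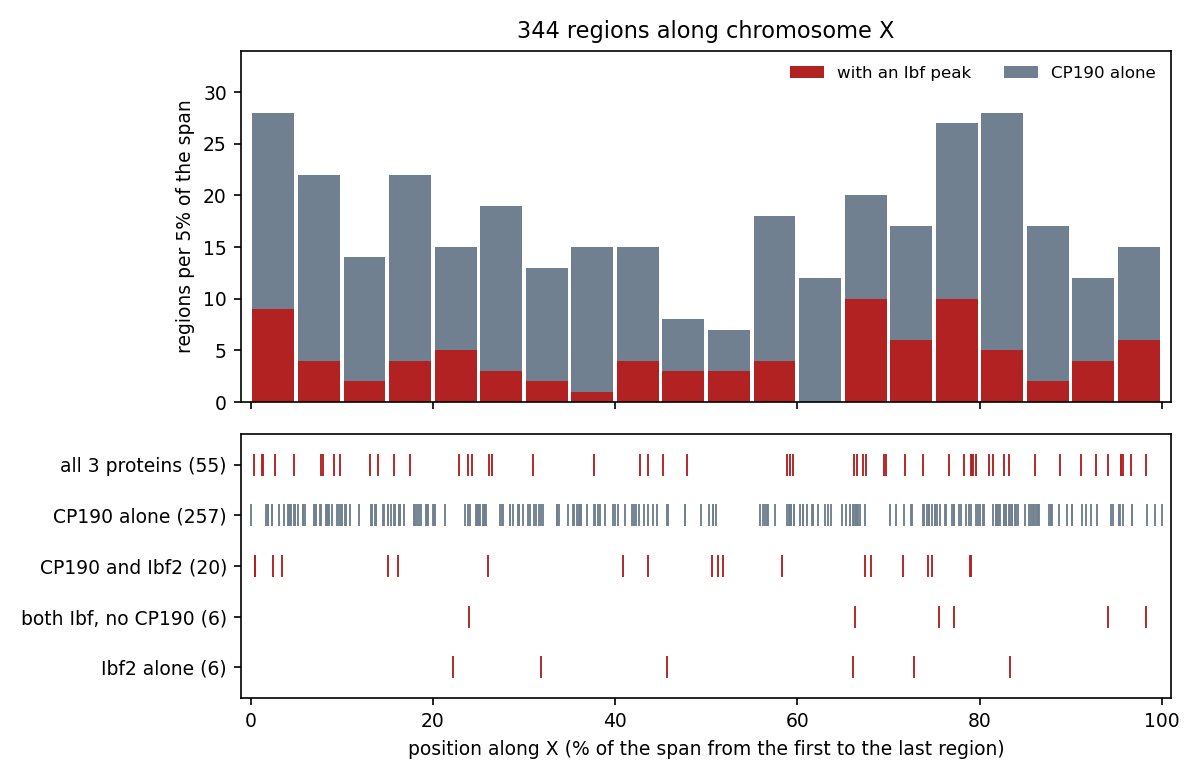
The upper panel gives the number of regions in each 5% of the span of X, split into regions with an Ibf peak and regions with CP190 alone, and the lower panel marks each region by class. The horizontal axis runs from the first to the last region in percent of the span, the counts fall to 8 and 7 on either side of the middle, and 1 of the 20 bins holds no Ibf region.

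Regions with an Ibf peak were found from end to end of the arm. In 5 consecutive parts of the span, equal in length, they made up 19 of 86 regions (22.1%), 11 of 62 (17.7%), 14 of 48 (29.2%), 26 of 76 (34.2%, 23.7 to 46.0) and 17 of 72 (23.6%). The intervals of these shares overlap. In the part of the span before its middle, at 11.2 Mb, lay 37 of 87 Ibf regions (42.5%, 32.0 to 53.6) and 134 of 257 CP190-alone regions (52.1%, 45.8 to 58.4). The odds ratio was 0.680 (0.403 to 1.14, two-sided exact Fisher test, p = 0.137), so no difference in position between the classes was resolved. Single bins differed widely: 7 of 11 regions had an Ibf peak between 15 and 16 Mb and 8 of 16 between 0 and 1 Mb, while none of 12 did between 4 and 5 Mb and none of 6 between 12 and 13 Mb. These bins were picked after their values were seen and hold few regions each.

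CP190 regions were slightly sparser on X than on any large autosome arm. X had 15.0 CP190 regions per Mb of called span, against 16.3 on 2L, 17.5 on 3L, 17.8 on 3R and 18.9 on 2R. For the CP190-alone class X was not outside the autosomal range, with 11.6 per Mb on X and also 11.6 on 2L, 12.1 on 3L, 12.6 on 3R and 13.2 on 2R. Regions with an Ibf peak numbered 3.94 per Mb on X, against 6.27 on 2L, 6.43 on 3L, 6.55 on 3R and 7.83 on 2R. These densities are descriptions of single lists, and the arms served as the only measure of spread. Read depth and DNA copy number of each arm were not known. Their part in any contrast of X with the autosomes, in density, gaps or widths, was not tested.

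No difference between X and the autosomes was resolved in short gaps between neighbouring regions. Of the 344 X regions, 128 (37.2%, 32.1 to 42.6) had another region within 10 kb, against 647 of 1821 on the autosomes (35.5%, 33.3 to 37.8). The odds ratio was 1.08 (0.840 to 1.37, two-sided exact Fisher test, adjusted p = 0.646). With a distance of 5 kb the shares were 23.8% on X and 20.3% on the autosomes (odds ratio 1.23, 0.922 to 1.62, exact Fisher test, adjusted p = 0.296). With a distance of 20 kb the shares were 52.9% on X and 58.5% on the autosomes, and the odds ratio turned to 0.796 (0.627 to 1.01, exact Fisher test, adjusted p = 0.142). Neighbours share a gap, so these regions are not independent of each other. The tests made no allowance for the lower density of regions on X.

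Gaps between neighbouring regions were longer in the median on X, where regions were also sparser (15.6 per Mb of span, against 17.8 to 21.0 on the large autosome arms). The median gap was 40.4 kb on X (33.6 to 48.7), against 32.2 kb on the autosomes (30.2 to 34.8), with 31.2 to 33.5 kb on the 4 large arms. Gaps over 100 kb were 73 of 343 on X (21.3%), against 266 of 1816 on the autosomes (14.6%), where the large arms ranged from 9.79% on 2R to 16.9% on 3R. This contrast was not tested. Between neighbouring Ibf regions the median gap was 152 kb on X (107 to 211) and 89.0 kb on the autosomes (74.8 to 102). Ibf regions were also sparser on X, with 3.94 per Mb against 6.27 to 7.83 on the large autosome arms. A CP190-alone region lay a median of 90.1 kb from the nearest Ibf region on X (78.2 to 108) and 51.6 kb on the autosomes (46.8 to 56.4).

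**Figure D2:**
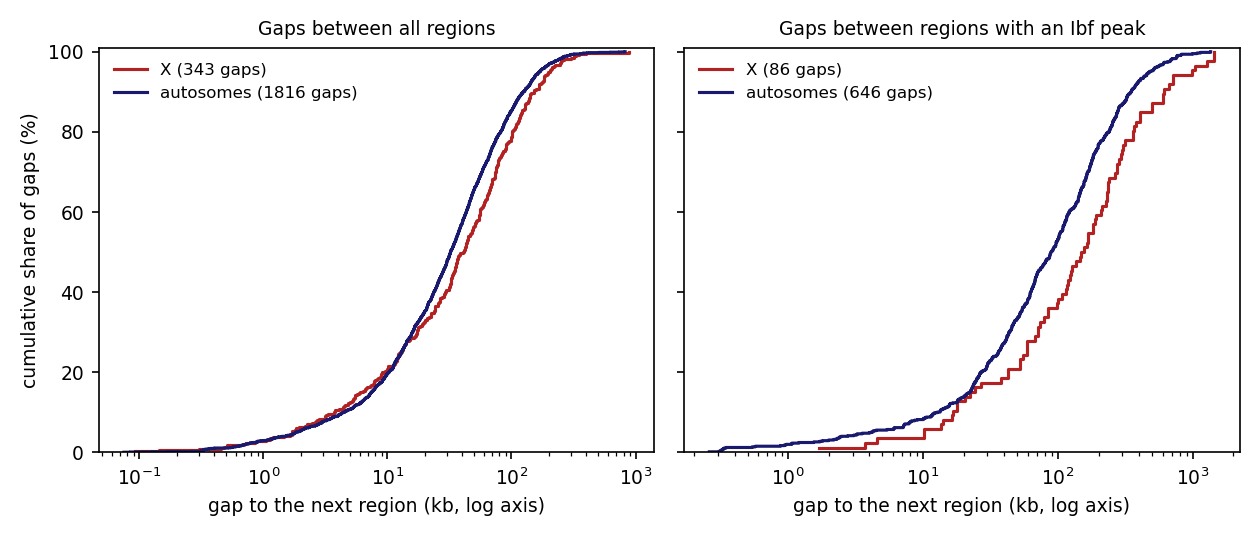
Cumulative shares of the gaps between neighbouring regions are drawn in percent against the gap in kb on a log axis, for X and for the autosomes. For all regions (left) the curves cross at short gaps and separate at long ones, with medians of 40.4 kb on X and 32.2 kb on the autosomes, and for regions with an Ibf peak (right) the medians are 152 and 89.0 kb.

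The longest stretch of X without a region was 888 kb, between 11589234 and 12477188. The next 4 measured 396 kb (10261980 to 10658363), 353 kb (7217877 to 7571036), 331 kb (21504063 to 21834796) and 321 kb (10726775 to 11047969). Of these 5 stretches, 3 fell between 10 and 13 Mb, the thinnest part of the arm. The long gaps and the low counts there are the same observation. On the large autosome arms the longest gaps were 825 kb on 3L, 735 kb on 2R, 506 kb on 2L and 406 kb on 3R. The region that borders the longest gap on X on its telomeric side carried CP190 and Ibf2, with peaks of 364 and 125 bp. Measured between Ibf regions only, the longest intervals were 1449 kb (13295604 to 14744469), 1440 kb (11589234 to 13028900) and 1282 kb (7185529 to 8467991), chosen after their values were seen. They enclosed 17, 6 and 14 regions of CP190 alone.

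At the other extreme, 57 runs of 2 or more regions with gaps of at most 10 kb were found on X: 45 pairs, 10 triples and 2 runs of 4. On the autosomes 290 such runs held 35.5% of the regions, and the longest had 6 regions. On X, 31 of the 57 runs consisted of CP190-alone regions only, 23 joined an Ibf region with a CP190-alone region, and 3 held at least 2 Ibf regions. On the autosomes these counts were 132, 120 and 50 of 290 runs, where the last 2 groups can overlap. CP190-alone regions made up 74.7% of all regions on X and 64.3% on the autosomes, and the make-up of runs was not tested. The run between 13223604 and 13232393 spanned 8.79 kb, with an all-protein region of 273 bp followed by CP190-alone regions of 308, 318 and 174 bp. The run between 18252032 and 18265063 spanned 13.0 kb and held 4 CP190-alone regions of 264, 8, 267 and 371 bp. The tightest run of 3, between 18409247 and 18414760, placed an all-protein region of 318 bp beside CP190-alone regions of 281 and 319 bp. The closest neighbours lay 92 bp apart, where a CP190-alone region ended at 14744376 and an Ibf2 peak of a single base followed at 14744469.

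The order of classes along X was also described. The next region towards the centromere had an Ibf peak for 25 of 87 Ibf regions (28.7%, 19.5 to 39.4) and for 62 of 256 CP190-alone regions (24.2%, 19.1 to 29.9). On the autosomes the shares were 255 of 648 (39.4%, 35.6 to 43.2) after an Ibf region and 392 of 1168 (33.6%, 30.9 to 36.4) after a CP190-alone region. The interval of each share includes the share of regions with an Ibf peak in the same set, 25.3% on X and 35.7% on the autosomes. In both sets the share was higher after an Ibf region than after a CP190-alone region, and that contrast was not tested.

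CP190-alone regions were wider on X than on the autosomes. Their median width was 278 bp on X (262 to 289, n = 257) and 252 bp on the autosomes (244 to 258, n = 1170). On X 149 of them (58.0%, 51.7 to 64.1) reached 256 bp, the median of the class in the whole genome, against 568 (48.5%, 45.6 to 51.5) on the autosomes. The odds ratio was 1.46 (1.10 to 1.94, two-sided exact Fisher test, adjusted p = 0.0357). The share on X was above that of each large arm, which ran from 44.9% on 2L to 51.4% on 2R. When peaks under 200 bp were left out the odds ratio was 1.49, and the difference no longer passed (exact Fisher test, adjusted p = 0.111). Over the whole CP190 list, which includes these regions, 185 of 332 X peaks (55.7%) and 827 of 1679 autosomal peaks (49.3%) reached the list median of 278 bp (odds ratio 1.30, 1.02 to 1.66, exact Fisher test, adjusted p = 0.118). With the upper quartile of the list in place of its median this odds ratio was 1.42 (1.09 to 1.86, exact Fisher test, adjusted p = 0.0423).

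Ibf2 peaks, pooled over classes, went the opposite way. Their median width was 230 bp on X (187 to 260, n = 88) and 274 bp on the autosomes (263 to 285, n = 651). By class the contrast was smaller or reversed, and was not tested. Beside CP190 without Ibf1 the medians were 102.5 bp on X and 105 bp on the autosomes. That class held 20 of the 88 X peaks and 79 of the 651 autosomal ones. With all 3 proteins the X median was lower, with overlapping intervals (244 to 330 and 298 to 323 bp). It was also lower with both Ibf proteins but no CP190. For Ibf2 alone it was higher, 164.5 against 99.5 bp, from 6 X peaks. The list median of 267 bp was reached by 32 of 88 X peaks (36.4%, 26.4 to 47.3), against 344 of 651 autosomal peaks (52.8%, 48.9 to 56.7), an odds ratio of 0.510 (0.311 to 0.826, two-sided exact Fisher test, adjusted p = 0.0357). Among the large arms 2L came closest to X, with 43.6%, and the others lay between 52.6% and 57.1%. It did not pass under other width settings: without peaks under 50 bp, 8 of them on X, the odds ratio was 0.605 (0.363 to 0.998, exact Fisher test, adjusted p = 0.144), and at the upper quartile of the list it was 0.624 (0.329 to 1.12, exact Fisher test, adjusted p = 0.293). For Ibf1 the share at or above its list median of 231 bp was 43.5% on X (27 of 62) and 50.9% on the autosomes (259 of 509), which was not resolved (odds ratio 0.745, 0.420 to 1.31, exact Fisher test, adjusted p = 0.475). Arm 2L, at 40.7%, was below X in this measure.

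**Figure D3:**
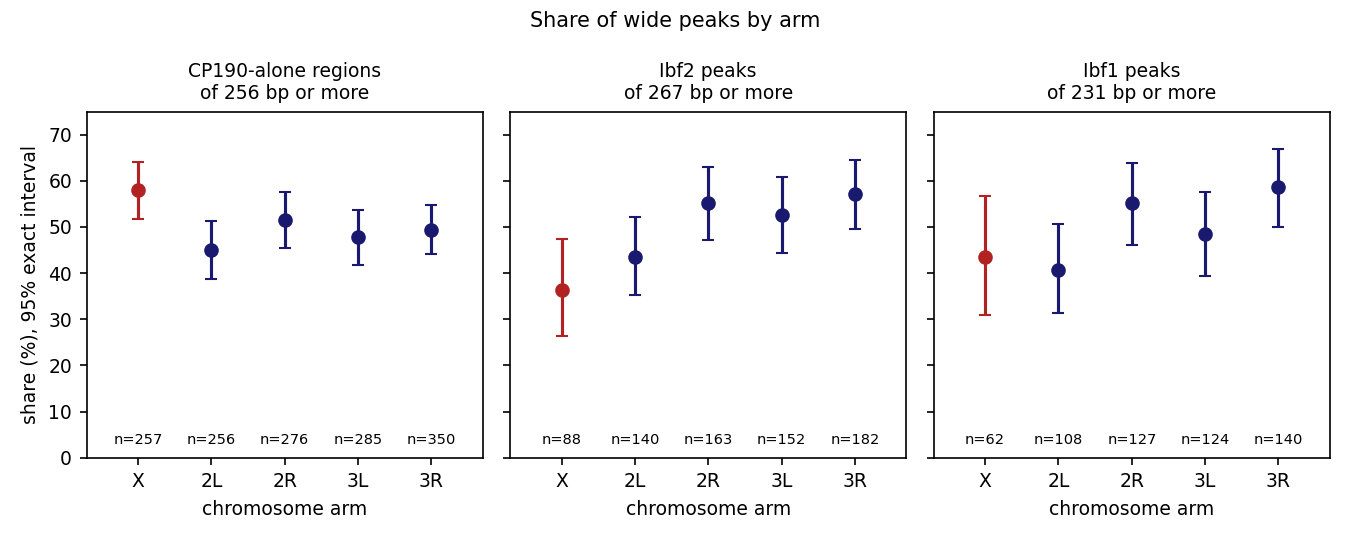
Each point is the share in percent of regions or peaks that reach the median width of their class or list, on X and on the 4 large autosome arms, and the bars are 95% exact intervals. X is highest for CP190-alone regions (58.0%), lowest for Ibf2 peaks (36.4%) and within the range of the other arms for Ibf1 peaks (43.5%).

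Where CP190 and Ibf2 shared a region on X, the CP190 peak enclosed the Ibf2 peak more often than the reverse. Of 74 X regions with a single peak of each, the Ibf2 peak lay wholly inside the CP190 peak in 43 (58.1%), the CP190 peak lay inside the Ibf2 peak in 5 (6.76%), and the peaks were staggered in 26. On the autosomes the corresponding counts were 231 (45.7%), 114 (22.5%) and 161 of 506. The median Ibf2 width was 77.9% of the CP190 width on X (59.9 to 84.7) and 91.1% on the autosomes (89.0 to 93.8), with 90.3% to 94.1% on the large arms. Ibf2 was the wider peak in 16 of 74 X regions (21.6%, 12.9 to 32.7) and in 178 of 506 autosomal regions (35.2%, 31.0 to 39.5). That comparison was added after the widths had been seen, and with an odds ratio of 0.509 (0.265 to 0.929) it did not pass once adjusted (two-sided exact Fisher test, p = 0.0244, adjusted p = 0.0733 over 12 tests). With peaks merged within 500 bp the adjusted p was 0.0400, and without peaks under 50 bp the odds ratio was 0.569 (0.294 to 1.05) and the adjusted p 0.181 (exact Fisher tests). Which peak was wider also varied with the class. Ibf2 was the wider peak in 15 of 54 X regions with all 3 proteins (27.8%) and in 1 of 20 without Ibf1. The autosomal counts were 174 of 427 (40.7%) and 4 of 79. Enclosure itself was not counted by class.

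Most peaks that shared a region on X were nearly concentric, less so for Ibf2 and CP190 where Ibf1 was absent. The midpoints of Ibf2 and CP190 lay a median of 23.0 bp apart (quartiles 11.5 and 53.1), within 50 bp in 54 of 74 X regions (73.0%) and in 395 of 506 autosomal regions (78.1%). The odds ratio was 0.759 (0.426 to 1.40, two-sided exact Fisher test, adjusted p = 0.531). Ibf1 and Ibf2 midpoints lay 7.0 bp apart in the median, within 50 bp in 56 of 60 X regions (93.3%) and in 452 of 497 autosomal regions (90.9%), with an odds ratio of 1.39 (0.480 to 5.53, exact Fisher test, adjusted p = 0.808). The Ibf1 peak was inside the Ibf2 peak in 59 of these 60 X regions and in 486 of the 497 autosomal ones (97.8%). No difference in alignment between X and the autosomes was resolved in intervals of this breadth.

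**Figure D4:**
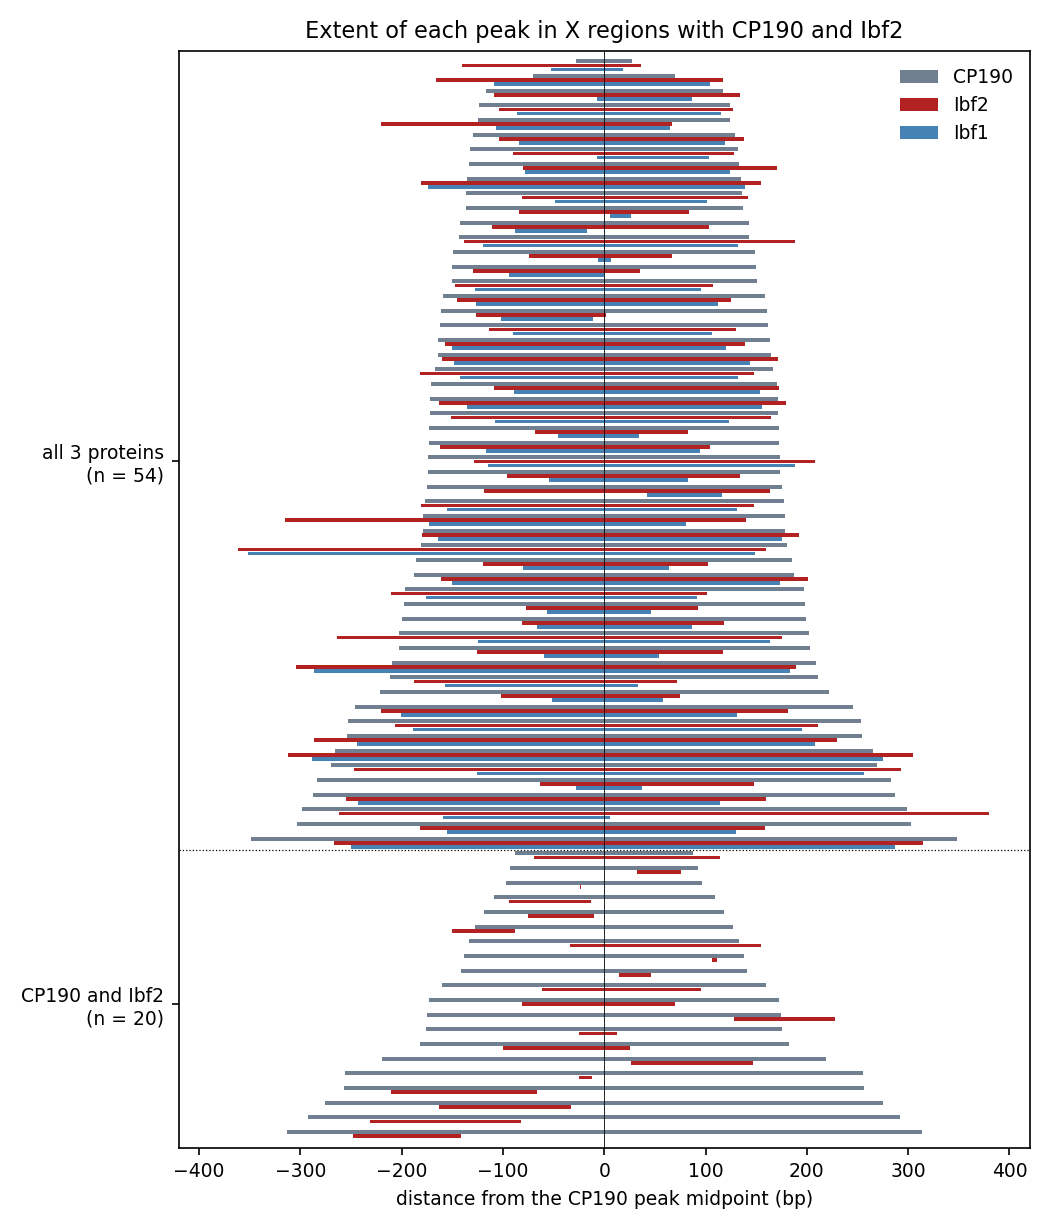
Each row is an X region with a single CP190 and a single Ibf2 peak, and bars show the extent of the CP190, Ibf2 and Ibf1 peaks in bp from the CP190 midpoint, sorted by CP190 width within class. In the 54 regions with all 3 proteins the Ibf2 bars are centred near 0, and in the 20 regions without Ibf1 they are short and often off centre.

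The 20 X regions with CP190 and Ibf2 but no Ibf1 had ordinary CP190 peaks and small Ibf2 peaks. Their CP190 peaks had a median width of 333 bp (255 to 438), close to the 347 bp (328 to 375) of the 55 regions with all 3 proteins and wider than the 278 bp of CP190-alone regions. Their Ibf2 peaks measured 1 to 189 bp with quartiles of 42.3 and 145 bp, against 129 to 641 bp with quartiles of 226.5 and 353 bp where Ibf1 was present, so the ranges overlapped only between 129 and 189 bp. The Ibf2 midpoint was also further from that of CP190, with medians of 53.8 bp (23 to 108.5, n = 20) and 19.3 bp (13 to 25, n = 54). On the autosomes those medians were 33.0 and 20.5 bp. Widths of the 2 classes had the same order there. Autosomal Ibf2 peaks beside CP190 measured 1 to 443 bp (median 105) without Ibf1 and 71 to 1415 bp (median 310) with it. The CP190 peaks had medians of 311 and 327 bp. Small Ibf2 peaks beside ordinary CP190 peaks were thus not particular to X.

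The share of regions with CP190 and Ibf2 that also had Ibf1 was smaller on X by value. Ibf1 was called at 55 of 75 such regions on X (73.3%, 61.9 to 82.9), against 429 of 508 on the autosomes (84.4%, 81.0 to 87.5), where the large arms ran from 82.9% to 85.9%. The odds ratio was 0.507 (0.281 to 0.944), and the comparison, also added after the data were seen, did not pass after adjustment (two-sided exact Fisher test, p = 0.0211, adjusted p = 0.0733 over 12 tests). With peaks merged within 500 bp the adjusted p was 0.0400, and without peaks under 50 bp the odds ratio was 0.675 (0.358 to 1.33) and the adjusted p 0.404 (exact Fisher tests). It shares its regions with the contrast of Ibf2 and CP190 widths and with that of Ibf2 widths, so these are not separate pieces of evidence. Within the class, the widest regions were at 15030942 to 15031568, 16548929 to 16549512 and 3464215 to 3464765. Their CP190 peaks spanned 627, 584 and 551 bp and their Ibf2 peaks 106, 149 and 131 bp. At the first of them the midpoints were 194.5 bp apart, the largest such distance on X.

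The widest X regions with all 3 proteins differed in layout. The region at 1180184 to 1181430 was a single CP190 peak of 1247 bp over 2 separate Ibf sites: Ibf1 peaks of 161 and 83 bp lay inside Ibf2 peaks of 266 and 246 bp, and the Ibf2 peaks were at 1180266 to 1180531 and 1180972 to 1181217. It was the only region on X with more than 1 peak of any list. At 17425854 to 17426550 the peaks nested in order of width, with 697 bp for CP190, 581 bp for Ibf2 and 537 bp for Ibf1. At 19155229 to 19155845 the order was turned, with 617 bp for Ibf2, 564 bp for Ibf1 and 531 bp for CP190. The region at 21292851 to 21293528 had wide CP190 and Ibf2 peaks (597 and 641 bp) and a small Ibf1 peak of 165 bp, and at 1846940 to 1847545 a CP190 peak of 606 bp covered Ibf peaks of 341 bp for Ibf2 and 285 bp for Ibf1. CP190 peaks in the 55 regions reached 278 bp in 44 cases (80.0%), against 304 of 429 on the autosomes (70.9%), which was not resolved (odds ratio 1.64, 0.802 to 3.65, two-sided exact Fisher test, adjusted p = 0.404).

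The widest CP190-alone regions lay at 5810235 to 5810977, 7180185 to 7180922 and 7056244 to 7056888, with widths of 743, 738 and 645 bp. All 3 fell between 5 and 8 Mb, and 4438 bp beyond the second lay an Ibf2-alone region at 7185361 to 7185529. CP190 peaks with an Ibf peak on X had a median of 346 bp (324 to 361, n = 75), above the 278 bp of those without, the order that holds over the whole genome.

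The 12 X regions without CP190 were mostly narrow. The 6 with both Ibf proteins had Ibf2 peaks of 38 to 426 bp (median 208) and Ibf1 peaks of 40 to 348 bp (median 74). The widest, at 17196027 to 17196452, had 426 bp for Ibf2 and 348 bp for Ibf1, and the next were at 20913614 to 20913843 (230 and 68 bp) and 14795721 to 14795949 (229 and 80 bp). The 6 Ibf2-alone regions were 1 to 574 bp wide (median 164.5). One of them, at 16229557 to 16230130, was 574 bp wide, and the rest were at most 178 bp wide, as at 18547434 to 18547611.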

How the data were processed

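The authors deposited 1 peak list each for the antibodies to CP190, CG8436 and CG9740, and the antibody label gave the groups. Every line of these lists holds only a chromosome with start and end positions, so a test on peak strength was not possible. Peaks were called against the Input library, per the series' design text. The submitters' processing notes name dm3 as build and CASAVA 1.8.2 as a tool. Which aligner, peak caller and threshold were applied is not given in the sources used here. Width and overlap depend on that threshold. Per the labels' protocols the libraries were amplified by PCR.

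Intervals were read as closed, and peaks sharing at least 1 bp were merged into regions. Whether starts count from 0 or 1 could not be told. Every share was compared by a two-sided exact Fisher test that gives the conditional odds ratio, and p-values were adjusted by the Benjamini-Hochberg method over the 10 tests of X against 2L, 2R, 3L, 3R and 4, or over 12 with the pair of tests added after the data were seen. The threshold was an adjusted p of 0.05. Intervals of medians come from order statistics. Alternatives changed the merging distance, the minimum width (50 or 200 bp), the width cut, the neighbour and midpoint distances, the split of X and the use of chromosome 4. Merging was tested on simulated regions set well apart, with at most 1 peak per protein, and on the rule of a shared base. The Fisher test and the intervals of medians were tested on independent simulated draws. Regions with several peaks of a protein and shared gaps were not simulated.

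The members, comparisons and named regions were chosen with earlier results of these data known. On X the rule named the 5 widest regions with all 3 proteins, the 3 widest of every other class, the 5 longest gaps, the 3 largest runs, the first and the last region and the closest pair. No annotation or genome of dm3 was used here, so genes and sequences at the regions are not given. Python 3.11.15, NumPy 2.4.6, SciPy 1.17.1 and matplotlib 3.10.9 were used.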

Additional observations from a re-analysis of the deposited data

Results flagged for a closer look

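Widths differed between X and the autosomes in opposite directions for the 2 measures that passed the adjusted threshold. CP190-alone regions reached the median width of their class more often on X (odds ratio 1.46, 149 of 257 against 568 of 1170, two-sided exact Fisher test, adjusted p = 0.0357). Ibf2 peaks reached the median of their list less often on X (odds ratio 0.510, 32 of 88 against 344 of 651, two-sided exact Fisher test, adjusted p = 0.0357). The Ibf2 measure pools classes whose Ibf2 peaks differ in width, and no test was made within a class. The lists hold no height or depth, so width and signal strength cannot be told apart, and a test that these 2 odds ratios differ from each other was not made.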

How the results depend on the processing

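No paired analysis was possible because each antibody had 1 library. Of 47 recomputed tests, 40 kept their direction and their side of the threshold. The width of CP190-alone regions fell below it with peaks of 200 bp or more (odds ratio 1.49), and the width of Ibf2 peaks did so with peaks of 50 bp or more (0.605) and at the upper quartile (0.624). CP190 peak width passed at the upper quartile (1.42). With peaks merged within 500 bp, the added comparisons of Ibf2 with CP190 width (0.489) and of the Ibf1 share (0.477) passed; without peaks under 50 bp they were 0.569 and 0.675 and did not. The share with a neighbour turned round at 20 kb (0.796); for each of these the cause was not tested, except that leaving out peaks leaves fewer of them. With peaks of 200 bp or more, X had 31 regions with all 3 proteins, 2 with both Ibf proteins and no CP190 and 3 with Ibf2 alone; some of these change class because 1 of their peaks is left out. The other 15 class counts stayed within 1.5 times. Only 62 Ibf1 and 88 Ibf2 peaks on X limit every Ibf comparison, and read depth was unknown.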
